A study of Mus musculus with 2 samples.

Results

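Alveolar type II (AT2) cells were described in single-cell RNA sequencing of mouse lung. They were taken as every cell that the authors had annotated as AT2, which gave 1034 of 18397 cells, 400 of 8793 in the control diet (CD) library and 634 of 9604 in the high-fat diet (HFD) library. The mice were female BALB/c, had started either diet at 4 weeks of age and were 20 weeks old after 16 weeks of feeding, and the labels name no other treatment for either group. Fat from lard supplied 13% of the energy of CD and 60% of that of HFD, with protein at 27% and 20% and carbohydrate at 60% and 20%. Each diet was 1 library of perfused, enzymatically digested lung depleted of red blood cells, and how many mice were pooled in a library is not given in the sources used here.

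AT2 cells are the cuboidal epithelial cells of the alveolus. They make pulmonary surfactant, a film of phospholipids, rich in palmitate, and of surfactant proteins that lowers surface tension, and they store it in lamellar bodies before secretion. They also serve as progenitors of the flat alveolar type I (AT1) cells through which gas is exchanged. The study sequenced these lungs to ask whether AT2 cells are involved in the lipid changes seen in the lung under HFD.

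The measurements at hand were, for each cell, the number of unique molecular identifiers (UMIs, a count of captured RNA molecules), the number of genes with at least 1 UMI, the percent of UMIs from mitochondrial genes, its position in the plane of a UMAP projection, and the fine cluster it fell in. Levels of single genes per cell were not analysed here, so the AT2 name could not be checked against marker expression and rests on the authors' annotation. What could be checked is whether the marker genes took part in building the map. The authors drew the UMAP plane, and the clusters in it, from 1000 highly variable genes, 5.26% of the 18995 genes outside the mitochondrial, ribosomal and cell cycle classes they had left out.

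All 6 AT2 markers carried the highly variable flag. Sftpc and Sftpb encode the hydrophobic surfactant proteins, and Sftpa1 and Sftpd the surfactant collectins, which bind microbial sugars. Abca3 encodes the lipid pump that fills lamellar bodies, and Lamp3 a lysosomal membrane protein found on them. In GRCm38, chromosome 14 holds Sftpa1 (ENSMUSG00000021789, plus strand, 41131782 to 41136452), Sftpd (ENSMUSG00000021795, minus strand, 41172214 to 41185149) and Sftpc (ENSMUSG00000022097, minus strand, 70520949 to 70524081). Sftpb (ENSMUSG00000056370) is on the plus strand of chromosome 6 (72304610 to 72314371), Abca3 (ENSMUSG00000024130) on the plus strand of chromosome 17 (24351950 to 24410201) and Lamp3 (ENSMUSG00000041247) on the minus strand of chromosome 16 (19653378 to 19706375).

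Other genes known from AT2 biology were flagged to different extents. The MHC class II genes H2-Aa, H2-Ab1 and H2-Eb1 and the invariant chain gene Cd74, which AT2 cells express as well as immune cells, were all flagged (4 of 4). Of 7 genes of AT2 activation and intermediate states, 5 were flagged, among them the iron-sequestering lipocalin Lcn2 and the keratin Krt8, while Cldn4 and Il33 were not. Of 14 genes of surfactant lipid synthesis and transport, 3 were flagged, namely the desaturase gene Scd1, Lpcat1, whose product acylates lysophosphatidylcholine, and the fatty acid binding protein gene Fabp5. The fatty acid synthesis genes Fasn, Acly and Acaca were among the 11 without the flag. None of 4 AT2 transcription factor genes (Nkx2-1, Etv5, Cebpa and Foxa2) was flagged. Of markers of cells that could be taken for AT2 cells or captured with them, the flag was carried by 5 of 6 for AT1 cells, 3 of 3 for club cells, 3 of 3 for ciliated cells and 3 of 4 for alveolar macrophages. The flag is a property of a gene over all cells of both libraries, and it says neither in which cells the gene was high nor how it differed between diets.

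The libraries shared 27 cell barcodes, and 4 of these marked AT2 cells, 5 cells in all. In 1 of the 4 pairs both cells were AT2 cells of the same fine cluster, with 12671 UMIs in CD and 8543 in HFD. In the other 3 pairs an AT2 cell of HFD with 14196 to 16743 UMIs had its barcode in common with a CD cell of another type (endothelial, B cell and pericyte) with 1628 to 2805 UMIs. Leaving these cells out gave an HFD to CD ratio of median AT2 UMIs of 1.14, the same as with them.

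AT2 cells carried a larger part of the RNA than of the cells. They were 4.55% of CD cells (95% Clopper-Pearson interval 4.12 to 5.01) but gave 4429676 of 42470977 UMIs, or 10.4% (9.45 to 11.5). In HFD they were 6.60% of cells (6.11 to 7.12) and gave 8080201 of 50679251 UMIs, or 15.9% (14.8 to 17.2). The share of UMIs was thus 1.53 times as high in HFD as in CD, beside 1.45 times for the share of cells. The mean AT2 cell held 11074 UMIs in CD and 12745 in HFD, which was 2.44 and 2.68 times the mean of all other cells in the same library. Since UMIs of 1 cell are not independent, the intervals of UMI shares were scaled from those of the cell shares. All intervals given here cover counting error only. With 1 library per diet, differences between diets cannot be told apart from differences between animals or preparations, and no test was run.

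The authors had split AT2 cells into 2 fine clusters, numbered 10 and 27, by Louvain clustering in the UMAP plane. Cluster 10 held 708 cells (261 CD, 447 HFD) and cluster 27 held 326 (139 CD, 187 HFD). Of the AT2 cells of CD, 65.3% were in cluster 10 (60.4 to 69.9), and of those of HFD 70.5% (66.8 to 74.0), with overlapping intervals. Since the plane and the clusters were computed from the genes of these same cells, the comparisons of the clusters below describe them and are no test.

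In the UMAP plane AT2 cells formed an isolated group. The 15 nearest cells of all 1034 AT2 cells were AT2 cells, and the closest cell of any other type, a fibroblast, lay 0.317 UMAP units away. Cluster 27 sat at the left of the group and cluster 10 at the right, with median positions 0.0686 units apart in CD and 0.0799 in HFD. These distances compare with a median distance of cells to the centre of their own cluster of 0.0352 (CD) and 0.0326 (HFD) in cluster 10 and of 0.0179 (CD) and 0.0184 (HFD) in cluster 27. Of the 15 nearest cells, 99.2% belonged to the same cluster in both clusters, and 40 of the 1034 cells had a neighbour from the other cluster. Because the clusters were cut in this same plane, that share is high by construction and does not show how sharp their border is. By centres, the closest other cluster was one of neutrophils for cluster 10 (0.486 units) and an unannotated one for cluster 27 (0.455 units). The nearest ciliated cluster was 0.559 units from the centre of cluster 10 (rank 7) and 0.494 from that of cluster 27 (rank 3). The nearest AT1 cluster was 0.770 (rank 16) and 0.796 units (rank 17) away. Distances in a UMAP plane are not proportional to differences in expression.

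The libraries were mixed within the group. The median position of cluster 10 moved by 0.00804 units between CD and HFD and that of cluster 27 by 0.00362, both less than the spread of cells within a cluster. HFD cells made up 63.9% of the neighbours of cluster 10 cells, against 63.1% of the cluster itself, and 58.6% of the neighbours of cluster 27 cells, against 57.4% of that cluster.

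**Figure D1:**
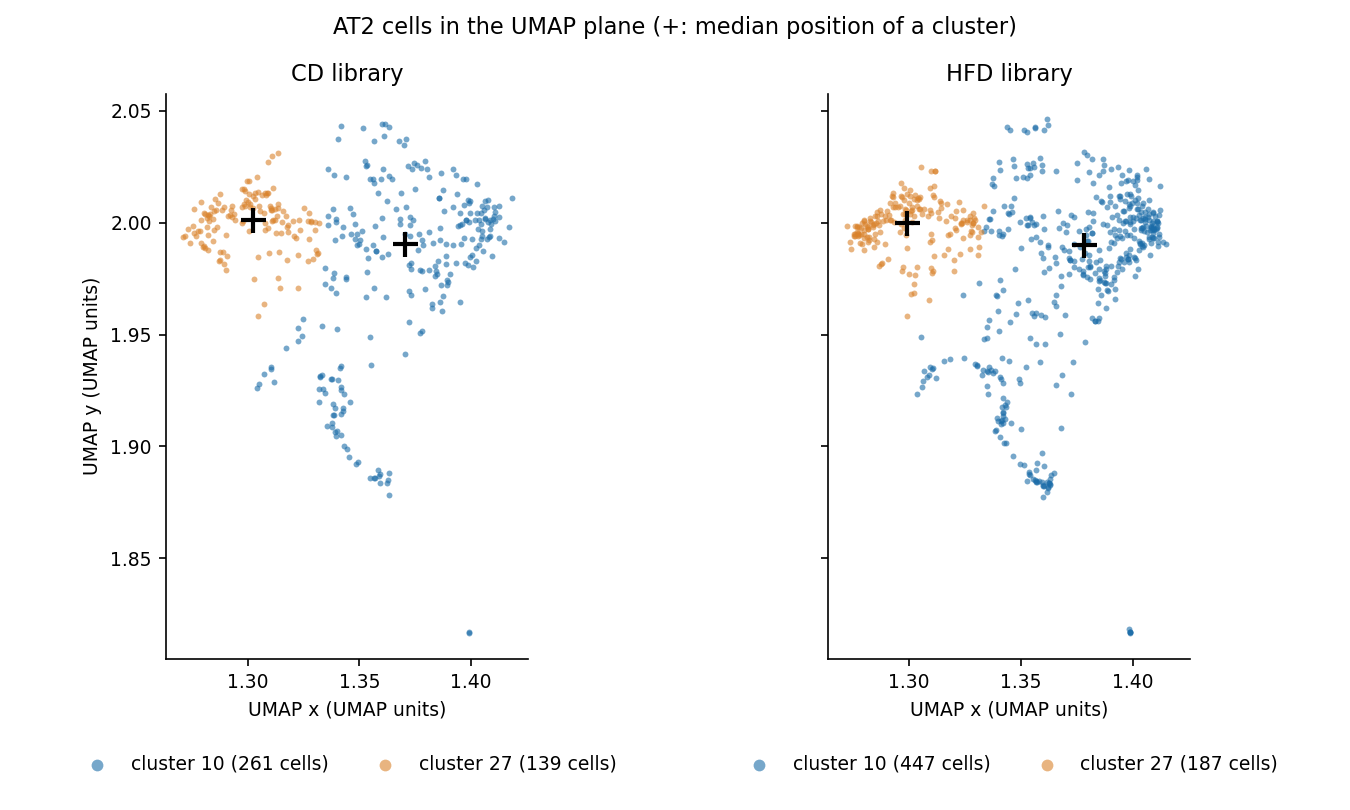
Position of each AT2 cell in the UMAP plane (both axes in UMAP units, which have no physical meaning), with the CD library on the left and the HFD library on the right. Blue points are cells of cluster 10, orange points cells of cluster 27, and crosses the median position of each cluster; in both libraries cluster 10 extends downward in an arm and 7 cells (2 CD, 5 HFD) lie apart at the lower right.

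The clusters differed more in their spread than in their centre. In CD, the median cell of cluster 10 held 10840 UMIs (quartiles 7720 and 13343) and that of cluster 27 held 11273 (8890 and 13195), a ratio of 1.04 with an interval from 0.930 to 1.23. The interval of a ratio of medians is taken here from the outer bounds of the order-statistic intervals of both medians. In HFD the medians were 11832 (8565 and 15880) in cluster 10 and 13453 (11098 and 15956) in cluster 27, a ratio of 1.14 (1.02 to 1.25). The HFD ratio was 1.09 (0.994 to 1.20) with at least 3000 UMIs and 1.08 (0.989 to 1.19) with at most 10% mitochondrial UMIs, where its interval included 1. The 5th and 95th percentiles lay 13.1-fold apart in cluster 10 and 4.46-fold in cluster 27 in CD, and 9.26-fold and 3.76-fold in HFD.

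Of the 59 AT2 cells under 3000 UMIs, 52 were in cluster 10, where they made up 7.34% of cells (5.53 to 9.52), against 2.15% in cluster 27 (0.868 to 4.37). Of the 85 AT2 cells over 20000 UMIs, 72 were in cluster 10, or 10.2% of it (8.04 to 12.6), against 3.99% of cluster 27 (2.14 to 6.72). With the libraries pooled, the intervals of the clusters did not overlap in either case. By library, the share under 3000 UMIs was 9.20% (5.98 to 13.4) in cluster 10 and 3.60% (1.18 to 8.19) in cluster 27 of CD, with overlap, and 6.26% (4.202 to 8.93) and 1.07% (0.130 to 3.81) in HFD, without. For the share over 20000 UMIs the intervals overlapped within each library, at 7.66% (4.74 to 11.6) against 2.16% (0.447 to 6.18) in CD and 11.6% (8.81 to 14.97) against 5.35% (2.59 to 9.61) in HFD. The cell with the most UMIs among all AT2 cells, 47900, was in cluster 10 of HFD, and the deepest cell of cluster 27 held 30958.

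Detected genes also had close medians and a wider spread in cluster 10. Cluster 10 had a median of 2754 genes per cell in CD (2197 and 3393) and 3019 in HFD (2368 and 3700.5). In cluster 27 the medians were 2821 in CD (2400 and 3160.5) and 3108 in HFD (2775 and 3385), which was 1.02 times (0.943 to 1.10) and 1.03 times (0.958 to 1.08) the median of cluster 10 in the same library. Of the 85 AT2 cells with at least 4500 genes, 80 were in cluster 10, 11.3% of its cells (9.06 to 13.9), and 5 in cluster 27, 1.53% of its cells (0.4998 to 3.54). The intervals of the clusters did not overlap in CD, 25 of 261 cells (9.58%, 6.30 to 13.8) against 2 of 139 (1.44%, 0.175 to 5.10), nor in HFD, 55 of 447 (12.3%, 9.41 to 15.7) against 3 of 187 (1.60%, 0.332 to 4.62).

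**Figure D2:**
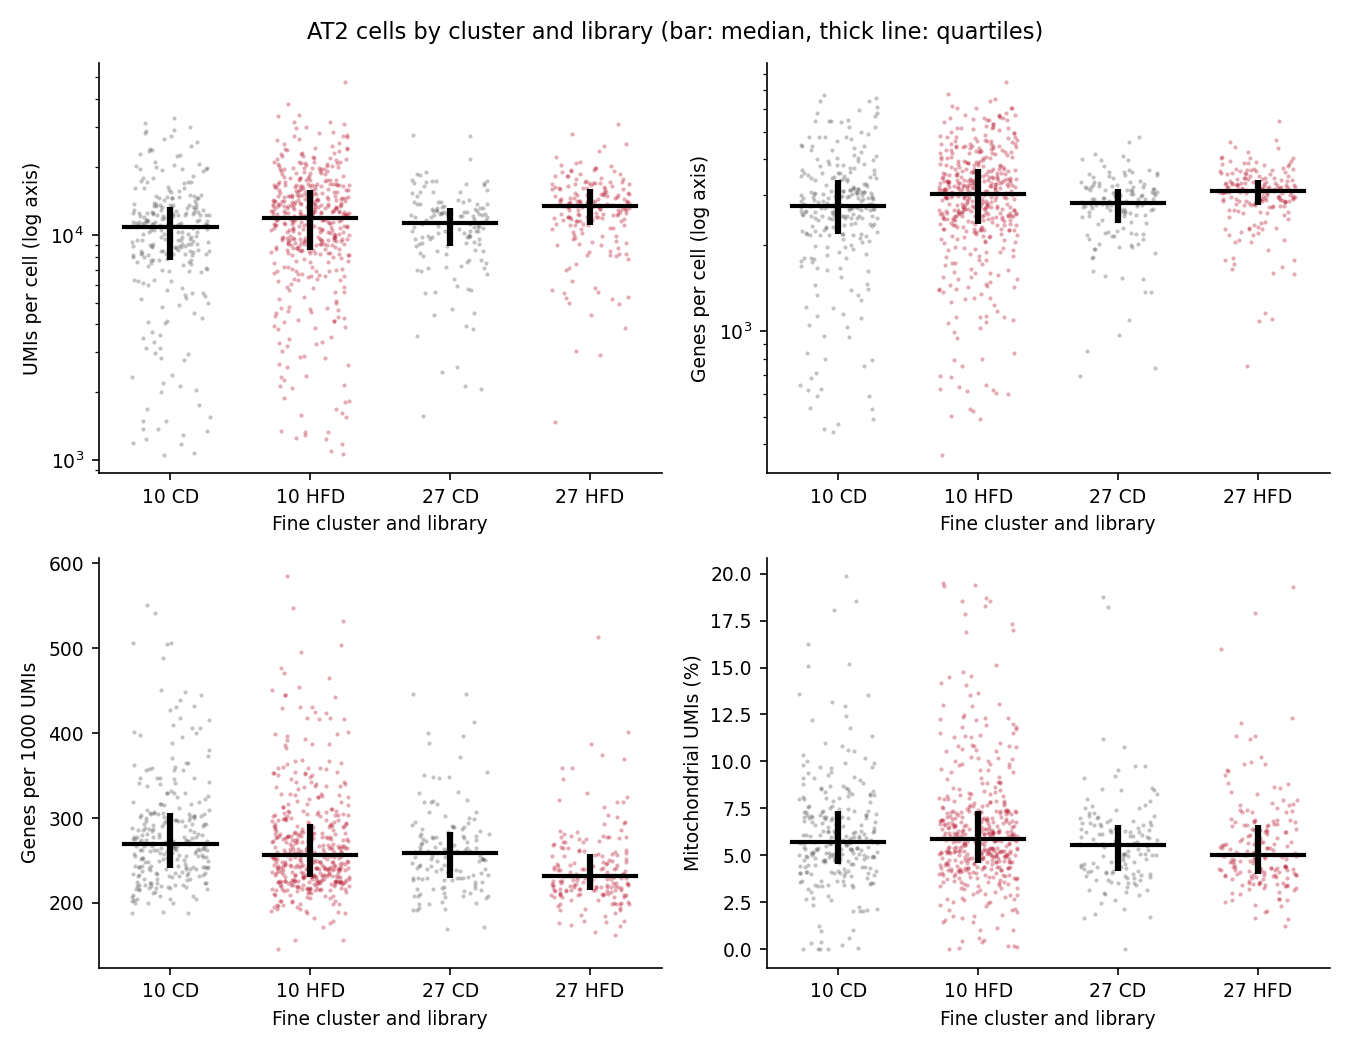
UMIs per cell and genes per cell (log axes), genes per 1000 UMIs and mitochondrial UMIs in percent for single AT2 cells, by fine cluster and library (grey CD, red HFD). Each point is a cell, horizontal bars are medians and thick vertical lines run between the quartiles; median UMIs lie between 10840 and 13453 in the 4 groups, while cluster 10 reaches from 1056 to 47900.

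Genes per 1000 UMIs, which shows over how many genes the RNA of a cell was spread, fell with depth in each cluster and so had to be read beside it. Medians in CD were 269.9 in cluster 10 (241 and 306) and 259 in cluster 27 (229 and 283), a ratio of 0.960 (0.898 to 1.00). In HFD the medians were 257 (230.4 and 293) in cluster 10 and 231 (215 and 258) in cluster 27, a ratio of 0.900 (0.860 to 0.946). When cells were compared within bins of 0.5 on the log2 scale of UMIs, the average ratio of cluster 27 to cluster 10 was 0.961 in CD and 0.949 in HFD. A spread of 1 SD of the bin ratios around these values reached from 0.887 to 1.04 in CD and from 0.881 to 1.02 in HFD. With bins of 0.25 the HFD ratio was 0.944 (spread 0.905 to 0.985). The spread shows how the ratio varied between bins. It is no interval of the average, so including 1 or not does not decide whether the clusters differ. At 8192 to 11585 UMIs the clusters had 2709 and 2742 median genes in CD and 2652 and 2724 in HFD, whereas at 11585 to 16384 UMIs they had 3175 and 3065.5 in CD and 3304.5 and 3126 in HFD, cluster 10 given first. At 16384 to 23170 UMIs cluster 27 had 3615 genes (14 cells) against 4680.5 in cluster 10 (22 cells) in CD, a ratio of 0.772, and 3691.5 (34 cells) against 4307 (77 cells) in HFD, a ratio of 0.857. The bins from 4096 to 11585 UMIs had ratios between 0.961 and 1.13, so that the lower value of cluster 27 stood at the deep end.

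**Figure D3:**
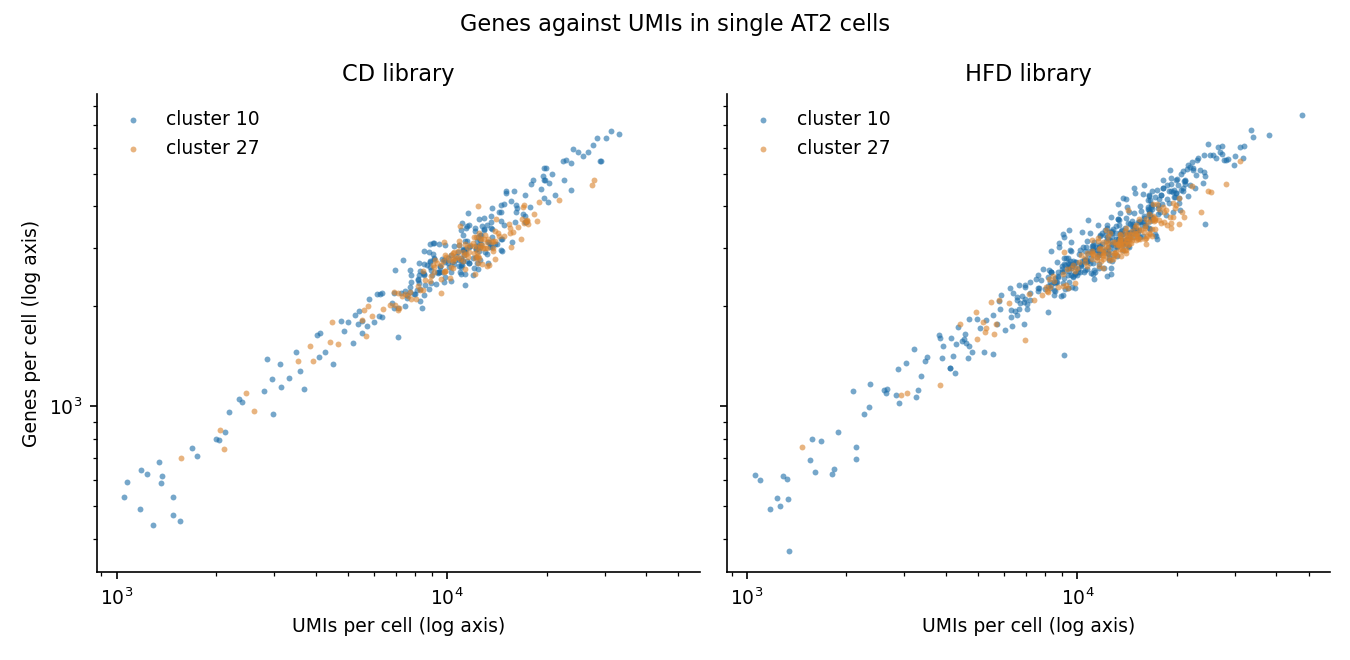
Detected genes against UMIs of single AT2 cells (both axes logarithmic) in the CD and HFD libraries, with cluster 10 in blue and cluster 27 in orange. Below 16384 UMIs the clusters overlap, above it cluster 27 lies lower (0.772 times the genes of cluster 10 in CD and 0.857 times in HFD up to 23170 UMIs), and 80 of the 85 cells with at least 4500 genes are blue.

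Cluster 27 had a lower mitochondrial percent in HFD, while the difference in CD was smaller, with an interval that included 0. The median of cluster 27 was 5.55% in CD (4.15 and 6.64) and 5.02% in HFD (4.01 and 6.62), compared to 5.71% (4.54 and 7.35) and 5.85% (4.57 and 7.35) in cluster 10. The difference, cluster 27 minus cluster 10, was -0.155 percentage points in CD, with an interval from -0.9999 to 0.501, and -0.830 in HFD (-1.39 to -0.223). Keeping cells of at most 10% mitochondrial UMIs brought the CD difference to 0.00402 and the HFD difference to -0.503 (-1.11 to 0.0949), so that the HFD interval then included 0. Between 8000 and 16000 UMIs the CD difference was -0.669 (-1.55 to 0.00940) and with means -0.476. Cells over 10% were 21 of 261 in cluster 10 (8.05%, 5.05 to 12.04) and 4 of 139 in cluster 27 (2.88%, 0.790 to 7.20) in CD, with overlapping intervals. In HFD they were 55 of 447 (12.3%, 9.41 to 15.7) and 9 of 187 (4.81%, 2.22 to 8.94), with intervals that did not overlap.

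Mitochondrial percent and depth were linked in AT2 cells in a way that was not monotonic. At 2896 to 4096 UMIs the median was 11.0% in CD (12 cells) and 12.1% in HFD (14 cells), falling to 5.68% and 5.38% at 11585 to 16384 UMIs. The lowest bin, 1024 to 1448 UMIs, had medians of 0.947% in CD and 5.81% in HFD, over 9 cells each. In all, 20 AT2 cells had under 1% mitochondrial UMIs. Of these, 18 held under 3000 UMIs, 19 were in cluster 10, and 6 had no mitochondrial UMI at all. They had a median of 1616.5 UMIs and 636 genes. In cluster 27 of HFD such cells were 0 of 187, which allows a share of up to 1.60% at 3 counts (Clopper-Pearson upper bound 1.95%).

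Depth differed between the lower and the upper end of cluster 10, and less between the ends of the shorter cluster 27. When each cluster was cut into 5 bands of equal cell number along UMAP y, the lowest band of cluster 10 had a median of 16618 UMIs in CD (quartiles 12836 and 21123) and 18421 in HFD (14257 and 22997). Its highest band had 4999 in CD (2018 and 10318) and 4714 in HFD (2478 and 9916), so that the lowest band was 3.32-fold deeper in CD and 3.91-fold in HFD. The 3 bands between them lay close together, at 10462, 10486 and 10412 UMIs in CD and 12314, 11620 and 11013 in HFD. In cluster 27 the same ratio was 1.24 in CD and 1.26 in HFD. These ratios span unequal distances, since the 5th to 95th percentiles of y lay 0.139 units apart in cluster 10 and 0.0362 in cluster 27. Spearman's rho between UMIs and y over the cells of cluster 10 was -0.54 in CD (261 cells) and -0.55 in HFD (447 cells), and for detected genes it was -0.63 and -0.65. In cluster 27 it was -0.22 (139 cells) and -0.15 (187 cells) for UMIs. The cells of each correlation share 1 library, and their position was computed from the same RNA as their depth, so that these values describe the map. They carry no test.

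**Figure D4:**
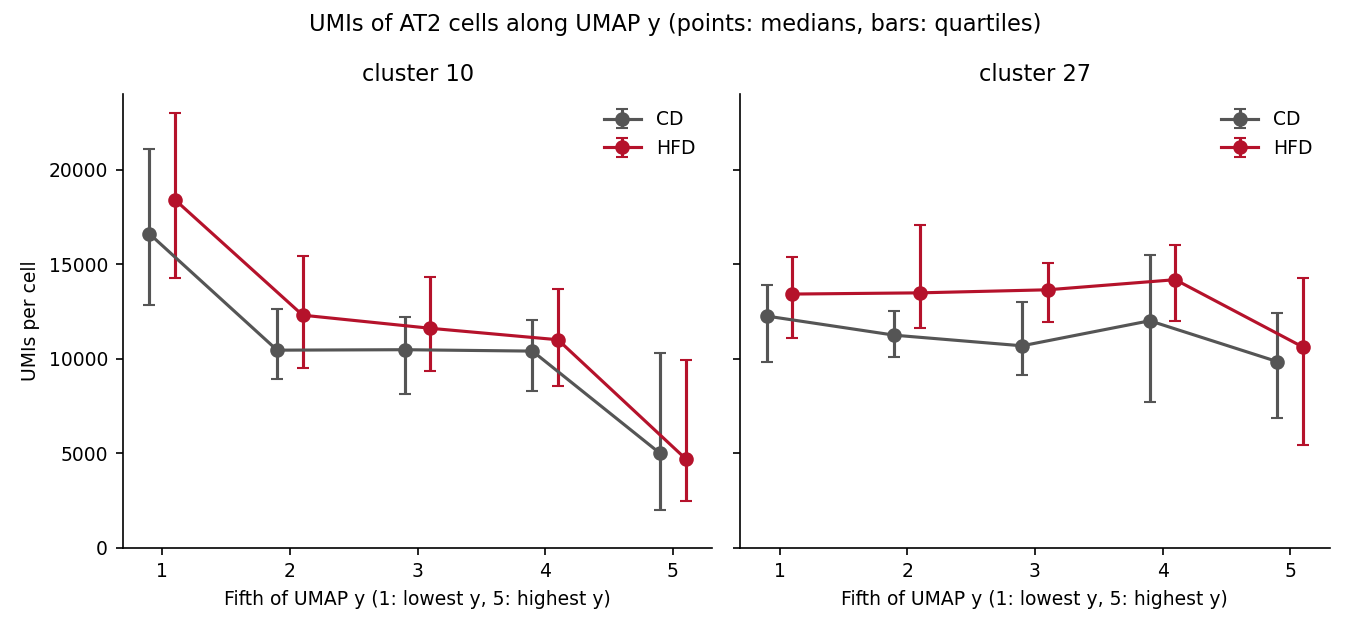
UMIs per cell in 5 bands of equal cell number along UMAP y (band 1 lowest, band 5 highest) for clusters 10 and 27, CD in grey and HFD in red. Points are medians and bars run between the quartiles; cluster 10 falls from 16618 (CD) and 18421 (HFD) in the lowest band to 4999 and 4714 in the highest with the 3 bands between at 10412 to 12314, while the bands of cluster 27 lie between 9854 and 14192.

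Regions of cluster 10 were drawn by eye on the map, after the values were seen, to describe where the extremes lie. An arm that ran downward from the main body held 47 CD cells, 18.0% of the cluster there (13.5 to 23.2), and 82 HFD cells, 18.3% (14.9 to 22.2). Its median cell had 16291 UMIs in CD and 18034 in HFD, and 4445 and 4434 genes. The arm contained 61 of the 80 cells of cluster 10 with at least 4500 genes and 45 of its 72 cells over 20000 UMIs. At matched UMIs the cells of the arm had 1.22 times (CD, 27 cells in the smaller group over 3 bins) and 1.17 times (HFD, 50 cells over 3 bins) the genes of the middle of the cluster. Their median mitochondrial percent was 4.85% in CD and 5.10% in HFD, below the 5.79% and 5.91% of the middle. A smaller spur at the left of the arm held 6 CD and 13 HFD cells, with median UMIs of 15352 and 16329 and no cell over 10% mitochondrial UMIs.

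The upper rim of cluster 10 held shallow cells. These were 30 CD and 42 HFD cells, 11.5% (7.89 to 16.0) and 9.40% (6.86 to 12.5) of the cluster, with medians of 2645 and 2843.5 UMIs and 1089.5 and 1124.5 genes, and both ends of the mitochondrial range were found there, with 21 of the 72 over 10% and 14 under 1% mitochondrial UMIs. The right side held 68 of 261 CD cells (26.1%, 20.8 to 31.8) against 146 of 447 HFD cells (32.7%, 28.3 to 37.2), with overlapping intervals. Its cells had 8511.5 and 9805 median UMIs, below the 11229 and 12611 of the middle, and at matched UMIs 0.958 (CD) and 0.962 (HFD) times the genes of the middle. Another 7 cells, 2 CD and 5 HFD, were detached from all others by about 0.07 units. They held 8894 and 25818 UMIs in CD and between 17460 and 30049 in HFD, with 2735 to 5677 genes, and 5 of them had over 20000 UMIs. The genes these regions express were not analysed here, and whether cells caught together in a droplet had a part in the arm or the detached group was not tested.

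AT2 cells of the HFD library held more UMIs than those of CD. The median CD cell had 10937 UMIs (8098.5 and 13294.5) and the median HFD cell 12488.5 (9088 and 15896), a ratio of 1.14 (1.06 to 1.26), and the ranges between quartiles overlap. The ratio was 1.09 (0.994 to 1.29) in cluster 10 and 1.19 (1.06 to 1.34) in cluster 27, where the lower quartile was 8890 in CD and 11098 in HFD. In cluster 10 it was 1.11 (1.01 to 1.24) with at least 3000 UMIs and 1.14 (1.03 to 1.28) with at most 10% mitochondrial UMIs. These intervals leave out 1. Like the others here, they are over cells of 1 library per diet and do not compare the diets. All other cells, pooled over types, had a ratio of 1.05 (3259 in CD, 3406.5 in HFD). Only 3 of the 17 annotated types had a ratio below 1, namely AT1 cells (lowest, 0.754), fibroblasts (0.941) and endothelial cells (0.949). More UMIs in HFD were thus not particular to AT2 cells. A larger ratio than that of AT2 cells was found in 7 types, with NK cells highest at 1.296.

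The number of genes differed between the libraries in the same direction. The median AT2 cell had 2790 genes in CD (2238 and 3234) and 3062.5 in HFD (2488.5 and 3580.5). This ratio was 1.10 (1.04 to 1.15), and it was 1.10 in cluster 10 (1.01 to 1.17) and 1.10 in cluster 27 (1.02 to 1.16). In cluster 10 the interval included 1 without the shared barcodes (0.997 to 1.18) or without the detached cells (0.996 to 1.17). Between 8000 and 16000 UMIs, a window that also narrows the range of genes, the ratio was 1.04 (0.999 to 1.09) over all AT2 cells. Genes per 1000 UMIs were lower in HFD (247) than in CD (264), at 0.935 times (0.894 to 0.964). At matched UMIs the ratio was 0.993 over all AT2 cells, 0.988 in cluster 10 and 1.01 in cluster 27. Bins of 0.25 gave 1.0015, 0.986 and 0.994, so that the side of 1 depends on the bin width for all AT2 cells and for cluster 27. Over the 17 types the matched ratio ranged from 0.976 to 1.07.

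Deep cells were counted in each library. Among all cells of a library over 20000 UMIs, AT2 cells were 23 of 121 in CD (19.0%, 12.4 to 27.1) and 62 of 169 in HFD (36.7%, 29.4 to 44.4), beside the 1.45 times larger share of AT2 cells among all cells of HFD. These intervals are over cells of 1 library each and do not compare the diets. Of the AT2 cells themselves, 5.75% of CD cells were over 20000 UMIs (3.68 to 8.50) against 9.78% of HFD cells (7.58 to 12.4), and 7.25% of CD cells were under 3000 UMIs (4.91 to 10.2) against 4.73% of HFD cells (3.22 to 6.69). Both pairs of intervals overlap.

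Median mitochondrial percent of AT2 cells was 5.65% in CD and 5.63% in HFD, which differ by -0.0169 percentage points (-0.525 to 0.444). By cluster, HFD minus CD was 0.144 in cluster 10 (-0.429 to 0.763) and -0.532 in cluster 27 (-1.13 to 0.348), both with intervals that include 0. The value of cluster 10 was -0.0472 among cells of at most 10% mitochondrial UMIs and -0.0959 between 8000 and 16000 UMIs, and with means cluster 27 was at -0.0835. Summed over cells, mitochondrial UMIs were 252107 of CD AT2 UMIs (5.69%) and 463898 of HFD AT2 UMIs (5.74%). Cells over 10% were 25 of 400 in CD (6.25%, 4.09 to 9.09) and 64 of 634 in HFD (10.1%, 7.86 to 12.7), and these intervals overlap.

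Set among the 17 annotated types, AT2 cells combined many UMIs with few genes per UMI and a high mitochondrial percent. Their median UMIs were the highest of the 17 in CD, close to the 10841 of alveolar macrophages, the resident phagocytes that take up used surfactant, and the second highest in HFD, where alveolar macrophages had 13483. Their median mitochondrial percent was the highest in CD and the second highest in HFD, after the 6.02% of 52 ciliated cells. Their genes per 1000 UMIs ranked last of 17 in both libraries, in CD close to DCs (267 against 264 in AT2 cells). Alveolar macrophages shared this combination, with genes per 1000 UMIs at rank 15 of 17 in both libraries and mitochondrial percent at rank 2 in CD and 3 in HFD. Because that measure falls with depth, genes were also compared at matched UMIs, where AT2 cells had fewer genes than 12 of the 16 other types in CD and 11 in HFD. This counts non-alveolar macrophages, at 0.998 in CD (bins 0.804 to 1.12) and 0.981 in HFD (0.820 to 1.02). It also counts neutrophils of CD (0.962, bins 0.756 to 1.17), NK cells of CD (bins 0.732 to 1.05) and monocytes of HFD (bins 0.893 to 1.01).

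AT2 cells had 0.847 times the genes of AT1 cells at matched UMIs in CD and 0.811 times in HFD, and every bin compared was below 1 (0.769 to 0.983 in CD, 0.759 to 0.880 in HFD). Against ciliated cells the ratios were 0.784 and 0.777, and against alveolar macrophages 0.872 and 0.891, where single bins ranged from 0.835 to 1.10 in CD and from 0.739 to 1.19 in HFD. The ratio was above 1 in both libraries against basophils (1.10 and 1.17), DCs (1.11 and 1.02), T cells (1.05 and 1.03) and B cells (1.01 and 1.03). Single bins lay on both sides of 1 for T cells (0.848 to 1.21 in CD, 0.774 to 1.12 in HFD), B cells (0.883 to 1.68 and 0.856 to 1.62) and DCs of HFD (0.919 to 1.05).

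**Figure D5:**
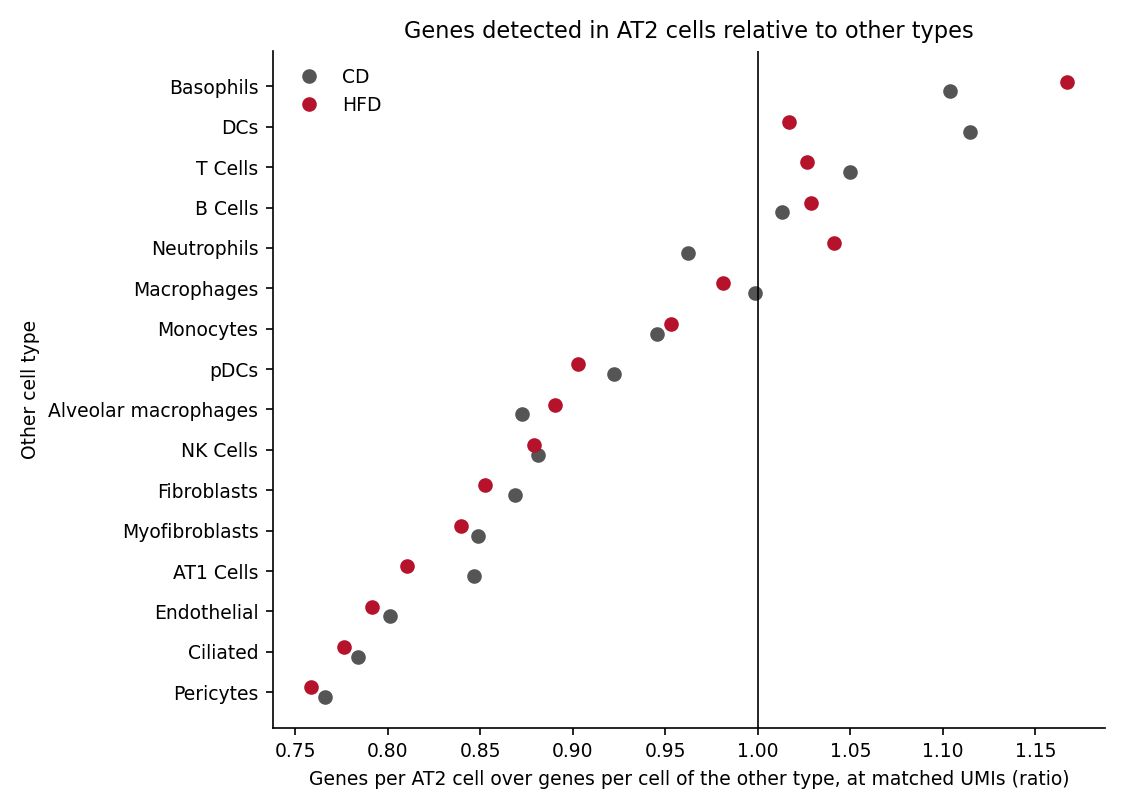
Ratio of detected genes per AT2 cell to those per cell of each other annotated type, within bins of UMIs and averaged over bins, for CD (grey) and HFD (red); the vertical line marks a ratio of 1. AT2 cells lie below 1 against 12 of 16 types in CD and 11 in HFD, from 0.766 and 0.758 for pericytes.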

How the data were processed

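Reads were mapped by the authors with Cell Ranger to GRCm38.p6 (mm10), merged in Seurat (version 4.1.0 in the submitters' processing notes) and passed to Monocle. The labels name a 3' droplet kit and the study's methods a 5' kit. The authors state limits of 20% mitochondrial RNA, 500 UMIs and 250 genes, but the lowest deposited cell has 1000 UMIs. No removal of doublets is stated, and no doublet caller was run here. The deposited table gives counts of UMIs and genes per cell, not normalized, the percent of mitochondrial UMIs, and UMAP coordinates, which are scores without a physical unit. Per the deposited description, UMIs and genes were counted before any gene filtering.

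Mitochondrial percent times UMIs was whole within 1e-06 in 100% of cells, which gave the mitochondrial UMIs. Genes at matched UMIs were compared by medians within bins of 0.5 on the log2 scale, with at least 5 cells per group, weighted by the smaller group. Cells were not thinned to a common depth, because counts per gene were not analysed here. Neighbours were the 15 nearest cells of both libraries. Medians have exact order-statistic intervals and shares Clopper-Pearson intervals, both 95%, over cells, which are not replicates. No p-value was computed. The ratio of median UMIs, with its interval, and the ratio of genes at matched UMIs were tested on simulated cells. Those cells followed 1 curve of genes against UMIs. The other measures were not tested in this way. AT2 markers were always to be named, and the other lists by counts with up to 4 members in list order. Lpcat1, Fabp5 and Il33 were named, and the map regions drawn, after values were seen. The AT2 cells, the lists and the comparisons were chosen with earlier results of these data known. Gene positions are from GENCODE M21 (GRCm38). Alternatives were limits on UMIs and mitochondrial percent, leaving out the 1% of AT2 cells with the most UMIs or cells mostly surrounded by the other cluster, means, bins of 0.25 and 5 or 30 neighbours. Tables were handled with pandas 2.3.3 under Python 3.11.15, intervals computed with scipy 1.17.1 and numpy 2.4.6, and plots drawn in matplotlib 3.10.9.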

Additional observations from a re-analysis of the deposited data

Results flagged for a closer look

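With 1 library per diet, each difference in direction given here was not tested. Pairs of cell groups moved in opposite directions between CD and HFD in several measures. For mitochondrial percent, HFD minus CD was 0.144 percentage points in cluster 10 and -0.532 in cluster 27, a difference of 0.675, and under a limit of 10% mitochondrial UMIs the value of cluster 10 was -0.0472, in the same direction as cluster 27. With means in place of medians the values were 0.272 and -0.0835. For genes at matched UMIs, HFD over CD was 0.988 in cluster 10 and 1.01 in cluster 27, a ratio of 0.978. With bins of 0.25 both were below 1, and between 8000 and 16000 UMIs both were above 1 (1.0068 and 1.0076).

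AT2 and AT1 cells also differed in direction, over 185 AT1 cells in CD and 334 in HFD, for which no intervals were computed. The AT2 range included no difference for genes at matched UMIs (spread 0.961 to 1.03) and for mitochondrial percent (interval -0.525 to 0.444). HFD over CD in median UMIs was 1.14 in AT2 and 0.754 in AT1 cells, so that the ratio of AT2 to AT1 was 1.51. For detected genes it was 1.10 and 0.826 (1.329), for genes per 1000 UMIs 0.935 and 1.07 (0.873) and for genes at matched UMIs 0.993 and 1.02 (0.973), where bins of 0.25 put AT2 cells at 1.0015, on the same side as AT1 cells. The mitochondrial percent differed by -0.0169 percentage points in AT2 cells and 0.273 in AT1 cells, a difference of -0.290. With means in place of medians the AT2 value was 0.192, positive like the AT1 value from medians. The AT1 value was not recomputed with means.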

How the results depend on the processing

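The results were recomputed under 8 other settings and 3 more chosen after seeing the data (without shared barcodes, without the 7 detached cells, and 8000 to 16000 UMIs alone). Of 255 values for 34 results, 251 stayed within the interval or spread of the reported value (for UMI shares, the interval scaled from the cell share) and 4 moved further. Part of this count was fixed in advance. Leaving out cells mostly surrounded by the other cluster, shared barcodes or detached cells removed only 1, 5 and 7 AT2 cells. For UMAP distances and genes at matched UMIs the range was a spread over cells or bins, not an error. With at least 3000 UMIs, AT2 cells gave 12.5% of UMIs in CD and 18.6% in HFD, by construction out of fewer cells. Between 8000 and 16000 UMIs, cluster 10 held 66.6% of AT2 cells in HFD. With bins of 0.25, genes at matched UMIs in cluster 27 had an HFD to CD ratio of 0.994, and the cause was not tested. Of the differences whose interval or spread left out 1 or 0, none changed direction under the settings run, but 11 values for 7 of them had an interval that came to include it. These were the cluster 27 to cluster 10 ratio of UMIs in HFD (3 settings, 1.08 to 1.11), the mitochondrial difference between the clusters in HFD at no more than 10% mitochondrial UMIs (-0.503), and 5 results on HFD against CD. Of the latter, genes in cluster 10 lost it without shared barcodes (0.997 to 1.18) and without the detached cells (0.996 to 1.17), and between 8000 and 16000 UMIs it was lost by UMIs in cluster 27 (1.11), genes over all AT2 cells (1.04), in cluster 10 (1.04) and in cluster 27 (1.04), and genes per 1000 UMIs in cluster 10 (0.978). The window of 8000 to 16000 UMIs cuts UMIs themselves, and genes with them, so that it narrows these ratios by construction. In 3 values for 2 results the interval or spread came to exclude 1. For the cluster 27 to cluster 10 ratio of genes at matched UMIs in HFD with bins of 0.25 (0.944) it was the spread of 1 SD of the bin ratios. That spread is no interval of the average. For the HFD to CD ratio of UMIs in cluster 10 with at least 3000 UMIs (1.11) or at most 10% mitochondrial UMIs (1.14) it was the interval over cells. Intervals over cells of 1 library per diet do not compare the diets, whether or not they include 1. A further 10 values whose reported interval or spread included no difference crossed it, namely 4 differences in mitochondrial percent, 3 ratios of genes between the clusters and 3 ratios of genes at matched UMIs between the libraries. The HFD to CD ratio of UMIs in AT2 cells ranged from 1.14 to 1.17 over its alternatives other than that window, where it was 1.08. No paired analysis was possible because CD and HFD were sequenced as a single library each. The number of cells limits the precision, and leaving out a library would leave no comparison.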
